A study of Mus musculus with 18 samples.

Results

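The RNA helicase DDX6 and 9 of its partners in decapping and P-bodies were followed in the polysome gradients of mouse embryonic stem cells (ESCs). The genes were taken by name: Ddx6, Dcp1a, Dcp1b, Dcp2, Edc3, Edc4, Patl1, Lsm14a, Lsm14b and Xrn1, which are 10 of the 51467 genes in the count table. ESCs of the V6.5 line, wild type (WT) or DDX6 KO, had been kept in LIF, fetal bovine serum and 2i (PD0325901 plus CHIR99021), and both genotypes received 100 ug/ml cycloheximide for 2 min before lysis. Sucrose gradients split each lysate by ribosome load. The fractions sequenced were the monosome, a low polysome of 2 to 4 ribosomes and a high polysome of 4 or more. With 3 gradients for each genotype this made 18 libraries, and KO gradient 1 came from clone 1 while KO gradients 2 and 3 came from clone 2. The KO was made in the WT line with Cas9 and a guide to exon 7 of Ddx6, so it stands on 2 clones. Nothing in the labels says that the 3 WT gradients were independent cultures, so the p-values measure the spread between gradients. In KO that spread also holds the difference between the 2 clones. The main fit had no block for the gradient and so treated the 18 libraries as independent.

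Most mRNAs are destroyed from the 5′ end once their poly(A) tail has been shortened. DCP2 is the enzyme that removes the cap and DCP1A or DCP1B is its activating subunit, while EDC3, EDC4 and PATL1 are enhancers and scaffolds of the reaction. DDX6 is a DEAD-box helicase that binds the deadenylase scaffold CNOT1, EDC3, PATL1 and the LSM14 proteins, and it both represses translation and helps decapping. XRN1 is the exonuclease that degrades the decapped RNA. The proteins gather in cytoplasmic granules called P-bodies. Argonaute and its miRNA reach this machinery through the deadenylase, and in ESCs the most abundant miRNAs are the ESCC family.

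Each library counted 3′ ends, at 1 read per transcript, so a level in CPM (counts scaled to library size with the TMM factors of edgeR) needs no division by length. A CPM value is a share of the reads of that fraction. It is not an amount of RNA per cell, and fewer cells with a transcript cannot be told apart from less of it per cell. Depth ran from 2543617 to 11474550 gene counts per library, and the 3 WT monosome libraries were the shallowest, at 2543617 to 4894677. All 7 naive ESC markers passed the filter on low counts, with a summed level of 1730 to 3180 CPM in WT and 1670 to 3070 CPM in KO. Fgf5 of the primed markers and Col3a1 of the fibroblast markers had no read in any library, and the 4 fibroblast markers summed to at most 11 CPM. The 4 primed markers summed to 103 to 149 CPM in WT and 32.7 to 80.4 CPM in KO, and their part in the results below was not tested.

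The edited part of Ddx6 and the sites for the ESCC miRNAs in its partners are shown first, because the first is where the KO was made and the second are the letters by which the 10 mRNAs could themselves be read by an ESCC miRNA. Coordinates are of mm10 and the gene models are those of Gencode M21. Ddx6 lies at chr9:44604892-44640731 on the plus strand. Its exon 7 (chr9:44626388-44626482, 95 bases, coding) starts after 646 of 1452 coding bases, that is 44.5% of the reading frame. The first 30 bases of that exon (chr9:44626388-44626417, plus strand) read as follows.
Ddx6 exon 7: tgcatgtggtgatcgctacccctggcagga
The end of the transcript is 5056 bases further on in the spliced RNA. Reads from the 3′ end therefore lie outside the edited exon, and the Ddx6 counts do not check the edit itself.

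The mature ESCC miRNAs of the miR-290 cluster on chromosome 7 share 1 seed (bases 2 to 8, in capitals), here as RefSeq gives them for GRCm38.p6.
mmu-miR-291a-3p: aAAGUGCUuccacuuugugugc
mmu-miR-294-3p: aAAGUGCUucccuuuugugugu
mmu-miR-295-3p: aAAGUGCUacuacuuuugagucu
An 8mer site for these printed miRNAs is AGCACTTA, and the 7mer sites are AGCACTT and GCACTTA, which the 8mer contains. They were searched on the sense strand of the 3′ UTR. Of 11769 tested genes with a coding model, 3.31% held an 8mer and 19.2% held any of these sites. Dcp1b held 1 8mer, 1417 bases after the stop codon (chr6:119221487-119221516, plus strand, site in capitals).
Dcp1b 3′ UTR: gttcaatccctAGCACTTAaaaaaagaaat
Lsm14b held 1 7mer, 737 bases after the stop codon (chr2:180035011-180035039, plus strand).
Lsm14b 3′ UTR: agcctctggctGCACTTAagtgttctcat
Dcp2 held 5 7mers in a 3′ UTR of 7240 bases, against a median of 990 bases over the 11769 genes. The other 7 genes had no match to these letters, which says nothing of other kinds of site. One transcript model per gene was searched, and the 3′ UTRs of these 7 ran from 218 bases in Xrn1 and 346 in Edc4 to 4250 in Ddx6. A match is a run of letters and not a measured site.

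In WT the helicase had the highest mean level of the 10 mRNAs. Ddx6 averaged 177 CPM over the 9 WT libraries (143 to 212), at percentile 90.4 of the 12705 genes tested, whose median was 25.1 CPM. It was followed by Lsm14a at 124 (86.9 to 203), Dcp2 at 121 (82.9 to 155), Patl1 at 67.7 (54.0 to 89.2), Edc4 at 60.3 (32.9 to 119), Lsm14b at 57.7 (42.5 to 77.5), Edc3 at 41.8 (31.5 to 60.3) and Xrn1 at 38.2 CPM (15.5 to 74.3). The DCP1 subunits were lowest, with Dcp1a at 13.7 CPM (2.66 to 27.9) and Dcp1b at 2.94 CPM (1.55 to 4.78). The ranges of all 9 pairs of neighbours in this order overlapped across the libraries. All 10 genes passed the filter of 3 CPM in 3 libraries, but Dcp1b, with 7 to 25 reads per library, reached 3 CPM in the 3 WT monosome libraries and in no other. Its monosome comparison is therefore given as a description, since the filter kept it through the group where it is high. The lowest counts of the other genes ran from 21 reads for Dcp1a to 283 for Dcp2.

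**Figure D1:**
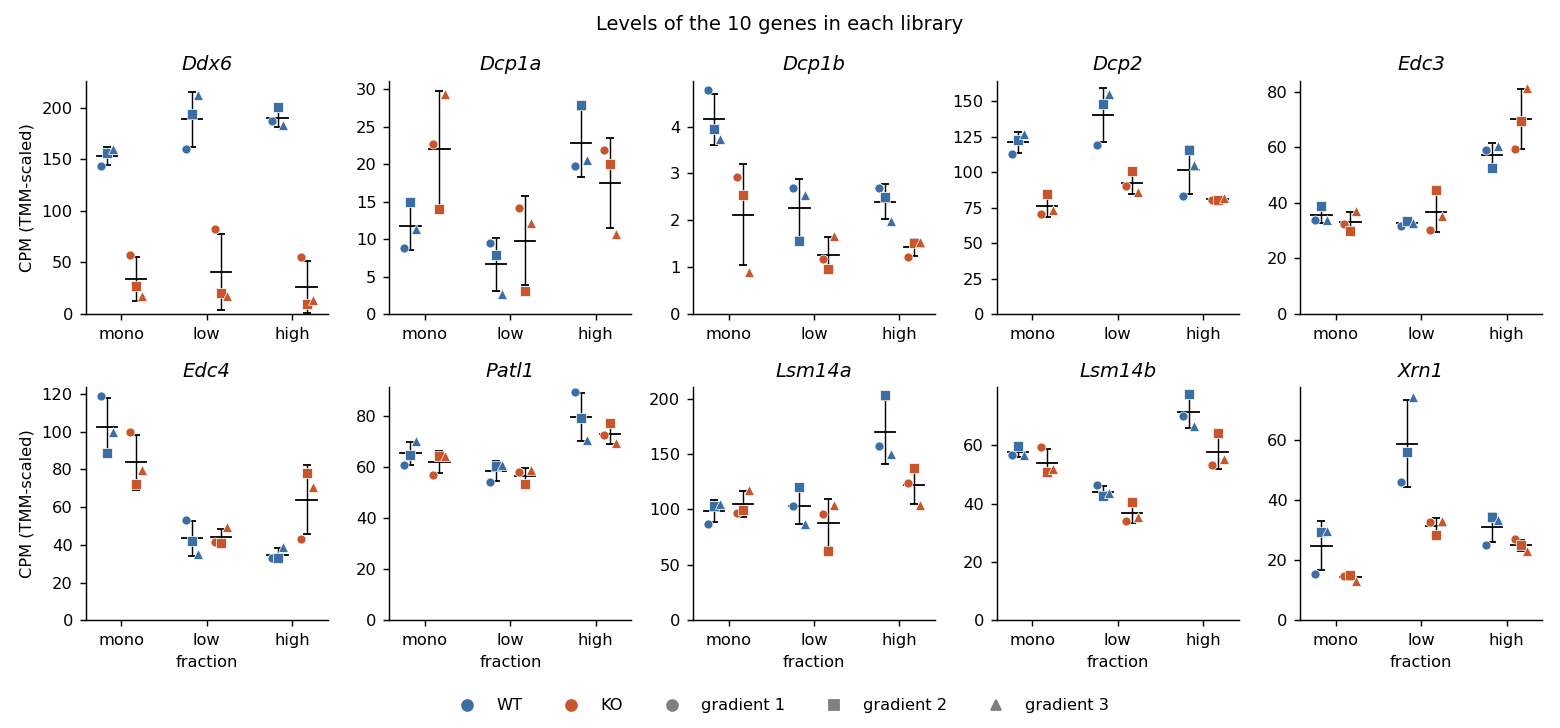
Level of each gene in CPM (vertical axes from 0) in every library, by fraction and genotype, with the mark showing the gradient and black lines the mean ± SD of 3. KO gradient 1 is clone 1. The Ddx6 points of KO sit at 9.68 to 82.7 CPM, all under the WT points at 143 to 212 CPM, while the Patl1 points of both genotypes lie over each other.

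Ddx6 mRNA was lower in KO cells in every fraction, and it was lower in clone 2 than in clone 1. In the monosome the WT levels were 143, 156 and 160 CPM, and the KO levels were 57.5 CPM in clone 1 and 26.7 and 17.6 CPM in clone 2. In the low polysome they were 160, 194 and 212 CPM in WT against 82.7 CPM in clone 1 and 20.7 and 17.7 CPM in clone 2. In the high polysome they were 187, 201 and 183 CPM in WT against 55.3 CPM in clone 1 and 9.68 and 13.1 CPM in clone 2.
The genotypes did not overlap in any fraction. All 9 KO libraries lay below all 9 WT libraries, which was the case for 2.77% of the genes tested. Clone 1 kept 29.1 to 43.8% of the WT mean of its fraction, and the 2 gradients of clone 2 kept 5.08 to 17.4%. With 1 gradient of clone 1, clone and gradient cannot be told apart.
On the log2 scale the fitted monosome change was −2.35 ± 0.48 (SE, adjusted p = 0.000691), with −2.62 ± 0.47 (adjusted p = 0.000117) in the low polysome and −3.32 ± 0.49 (adjusted p = 1.72e-05) in the high polysome, by limma with Benjamini-Hochberg adjustment over all genes. The fall was called in all 14 alternative analyses of each fraction. Without KO gradient 1 it was larger, at −2.81, −3.29 and −4.06.

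The comparison asks whether the mRNAs that code for the rest of the decapping machinery changed when the helicase was lost. Counting Ddx6, 4 of the 10 genes fell and 0 rose in the monosome, where 20.1% of all genes tested fell and 18.6% rose. In the low polysome 3 fell and 0 rose, against 24.3% and 23.4% of all genes. In the high polysome 3 fell and 1 rose, against 21.1% and 25.3% of all genes. The 4 of the monosome include Ddx6 itself and Dcp1b, which the filter on low counts kept only through its WT monosome libraries, so that its place among them was favoured by the filter. With 10 genes, 1 gene more or less moves these shares widely, and nothing is read from them. Every KO library lay below every WT library for 4, 4 and 5 members in the 3 fractions (27.0%, 26.1% and 26.1% of all genes) and above for 0, 0 and 1 (25.7%, 25.2% and 29% of all genes). The median change over the 10 genes was −0.20, −0.26 and −0.32 on the log2 scale in the 3 fractions, and the median over all genes was −0.033, −0.027 and −0.007. The members below WT and these medians include Ddx6 itself in each fraction. Dcp1b, which the filter kept only through its WT monosome libraries, is among the members below WT in the monosome and the high polysome. It is also counted in the medians of all 3 fractions. At an unadjusted p under 0.05 no member rose in the monosome or the low polysome, and edgeR's quasi-likelihood test and DESeq2 also called 0 risers there.

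**Figure D2:**
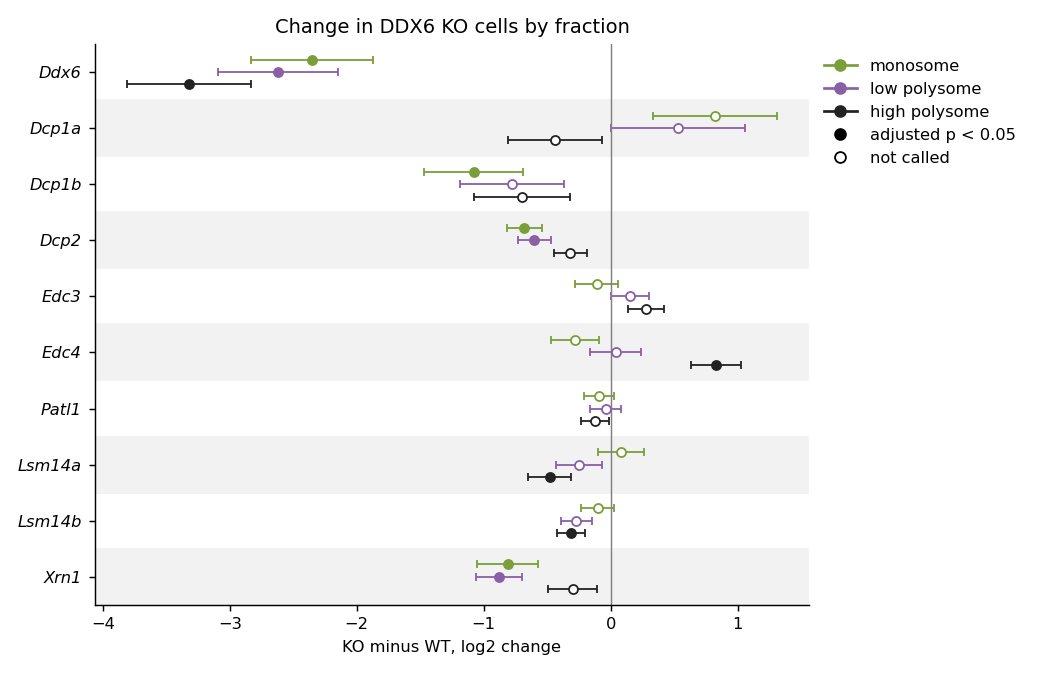
KO minus WT in log2 units (horizontal axis) for each gene by fraction, with bars of 1 SE from the limma fit and filled points where the adjusted p passed 0.05. Ddx6 lies at −2.35 to −3.32, Dcp2 and Xrn1 are filled on the left in the monosome and low polysome, and Edc4 is filled on the right at 0.83 in the high polysome.

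Of the decapping enzyme and its DCP1 subunits, Dcp2 was lower in KO. Its monosome levels were 113, 123 and 127 CPM in WT and 70.4, 84.9 and 73.1 CPM in KO. Its low polysome levels were 119, 148 and 155 CPM in WT and 90.3, 101 and 85.7 CPM in KO. In the high polysome the KO libraries were close together at 80.2, 80.6 and 81.8 CPM, and the WT libraries were at 82.9, 116 and 105 CPM.
No KO library of Dcp2 reached a WT library of the same fraction. The log2 change was −0.68 ± 0.14 (adjusted p = 0.000692) in the monosome and −0.60 ± 0.13 (adjusted p = 0.000991) in the low polysome, and both were called in all 14 alternatives. In the high polysome the change was −0.32 ± 0.13 with an adjusted p of 0.0585. That p was under 0.05 in 5 of 14 alternatives, which were DESeq2 size factors (0.0212), library size alone (0.04), the DESeq2 test (0.0129), the replicate block (0.0303) and leaving out WT gradient 1 (0.00291). The difference between the high polysome and monosome changes was 0.36 ± 0.19 (adjusted p = 0.201), so the fractions were not shown to differ.

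Dcp1b, the rarer of the DCP1 subunits, was at 4.78, 3.95 and 3.73 CPM in the WT monosome and at 2.93, 2.54 and 0.898 CPM in the KO monosome. These values rest on 12, 17 and 18 reads in WT and 23, 21 and 7 reads in KO. The log2 difference was −1.08 ± 0.39. Its adjusted p of 0.0325 supports nothing here, because the gene entered the table only through the WT monosome libraries, and with no filter the adjusted p was 0.062. The threshold was missed in 5 of the 11 alternatives in which the gene was tested. Without KO gradient 3 the change was −0.59 (adjusted p = 0.212), so that library of 7 reads decides the size. The changes in the low and high polysome were −0.78 ± 0.41 (adjusted p = 0.127) and −0.70 ± 0.38 (adjusted p = 0.135).
Dcp1a, the other subunit, varied widely between gradients of 1 genotype. Its monosome levels were 8.76, 14.9 and 11.4 CPM in WT and 22.7, 14 and 29.4 CPM in KO, and its low polysome levels were 9.43, 7.89 and 2.66 CPM in WT and 14.2, 3.00 and 12.1 CPM in KO. The groups overlapped in all 3 fractions, and the changes of 0.82 ± 0.49, 0.53 ± 0.53 and −0.44 ± 0.37 gave adjusted p-values of 0.193, 0.433 and 0.347. Without KO gradient 2 the monosome and low polysome values passed, at 1.12 (adjusted p = 0.0298) and 1.15 (adjusted p = 0.026), and the monosome value also passed when only the compared groups were fitted (adjusted p = 0.0185).

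Xrn1, the exonuclease that follows decapping, was lower in KO in the monosome and the low polysome. Its low polysome levels were 46.1, 55.8 and 74.3 CPM in WT and 32.8, 28.2 and 33.0 CPM in KO, with a gap between the groups. Its monosome levels were 15.5, 29.3 and 29.8 CPM in WT and 14.8, 15.1 and 13.1 CPM in KO. The low WT value of 15.5 CPM came from gradient 1, the shallowest library, and it lay just above the highest KO library. Gradient 1 was also the lowest of WT in the high polysome (25.2 CPM) and in the low polysome (46.1 CPM), where it was the deepest WT library.
The low polysome change was −0.88 ± 0.18 (adjusted p = 0.000511) and was called in all 14 alternatives. The monosome change was −0.81 ± 0.24 (adjusted p = 0.0106), and it was −1.04 without WT gradient 1. It missed the threshold once WT gradient 2 was left out (adjusted p = 0.0802), and the same held for WT gradient 3 (0.053) and KO gradient 3 (0.0551). In the high polysome, Xrn1 was at 25.2, 34.2 and 33.2 CPM in WT and 26.9, 24.9 and 23.2 CPM in KO, which overlap, and the change of −0.30 ± 0.19 had an adjusted p of 0.2. It passed only without WT gradient 1, at −0.50 (adjusted p = 0.015).

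Among the enhancers of decapping, Edc4 rose in the high polysome and Edc3 and Patl1 were not called in any fraction. EDC4 is the large scaffold that links DCP1 to DCP2. Its high polysome levels were 33.0, 32.9 and 38.7 CPM in WT, and 43.2 CPM in clone 1 and 77.9 and 70.9 CPM in clone 2. All KO libraries were above all WT libraries, with clone 1 nearest to WT. The change was 0.83 ± 0.20 (adjusted p = 0.00181) and was called in all 14 alternatives, from 0.67 to 1.1. A correction for coding length, given below for comparisons between fractions, was not among them. In the monosome Edc4 was at 119, 88.5 and 99.9 CPM in WT and 100, 72.0 and 79.4 CPM in KO, which overlap (−0.28 ± 0.19, adjusted p = 0.272), and in the low polysome the change was 0.04 ± 0.20 (adjusted p = 0.892).
Edc3, which joins DCP2 to DDX6, had changes of −0.11 ± 0.17, 0.15 ± 0.15 and 0.28 ± 0.14 with adjusted p-values of 0.634, 0.444 and 0.0996 across the 3 fractions from monosome to high polysome. Without KO gradient 1 the last was 0.40 (adjusted p = 0.0238). An exon of Clk3 overlaps Edc3 on the opposite strand, and an exon of C78334 overlaps Xrn1 in the same way, but the counting used strand.
Patl1, the PAT1 scaffold that bridges DDX6 to the LSM1 to LSM7 ring, was at 54.0 to 89.2 CPM in the WT libraries and 53.2 to 77.3 CPM in the KO libraries. Its changes were −0.09 ± 0.12, −0.04 ± 0.12 and −0.12 ± 0.11 with adjusted p-values of 0.6, 0.795 and 0.41, and no alternative called any of them.

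The LSM14 proteins are RNA-binding partners that compete with EDC3 and PATL1 for the same face of DDX6. Both mRNAs fell in the high polysome and were not called in the other fractions. Lsm14a was at 157, 203 and 150 CPM in WT and 124, 137 and 104 CPM in KO there, and Lsm14b at 70.1, 77.5 and 66.5 CPM in WT and 53.1, 64.1 and 55.4 CPM in KO. Neither gene overlapped between the genotypes in that fraction. The changes were −0.48 ± 0.17 (adjusted p = 0.0263) and −0.31 ± 0.11 (adjusted p = 0.031).
Both calls depended on single gradients. The Lsm14a call was lost without WT gradient 2 (adjusted p = 0.154) or KO gradient 3 (0.101). The Lsm14b call did not hold when WT gradient 2 (0.152), KO gradient 1 (0.0978) or KO gradient 3 (0.0973) was dropped. In the monosome the changes were 0.08 ± 0.18 (adjusted p = 0.77) and −0.10 ± 0.13 (adjusted p = 0.55). In the low polysome they were −0.25 ± 0.18 (adjusted p = 0.245) and −0.27 ± 0.12 (adjusted p = 0.0747), and for Lsm14b the genotypes did not overlap there. The differences between the high polysome and monosome changes, −0.56 ± 0.25 (adjusted p = 0.125) and −0.21 ± 0.17 (adjusted p = 0.416), were not called, though the one of Lsm14a was when only the compared groups were fitted (adjusted p = 0.0483).

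The translation level of a gene is its level in the high polysome over that in the monosome, here as a log2 ratio after adding 0.5 CPM to both. In WT, Edc3 and Lsm14a leaned to the high polysome and Edc4 to the monosome. The WT ratios of Edc3 were 0.79, 0.43 and 0.83, those of Lsm14a 0.85, 0.97 and 0.51, and those of Lsm14b 0.31, 0.37 and 0.23. Edc4 was at −1.83, −1.41 and −1.36. The fitted difference between the fractions was 0.68 ± 0.16 for Edc3 (adjusted p = 0.00109), 0.77 ± 0.18 for Lsm14a (adjusted p = 0.000982), 0.30 ± 0.12 for Lsm14b (adjusted p = 0.0406) and −1.53 ± 0.20 for Edc4 (adjusted p = 1.67e-06). So 3 of 10 genes were higher and 1 was lower in the WT high polysome than in the WT monosome, against 28.9% and 32.2% of all genes. The Lsm14b call was lost without any 1 of the WT gradients and with the coding length trend removed, with adjusted p from 0.058 to 0.202. Patl1 was at 0.27 ± 0.12 (adjusted p = 0.0638) and passed in 6 of 16 alternatives.
In KO, Edc3 and Xrn1 leaned to the high polysome. Edc3 had ratios of 0.87, 1.20 and 1.13, and Xrn1 of 0.84, 0.70 and 0.80. The fitted differences were 1.08 ± 0.15 (adjusted p = 1.79e-06) and 0.80 ± 0.21 (adjusted p = 0.00243), which made 2 of 10 genes higher and 0 lower, against 35.0% and 33.6% of all genes. Edc4 in KO was at −0.42 ± 0.19 (adjusted p = 0.055), which passed in 6 of 16 alternatives. The Xrn1 value fell to 0.30 (adjusted p = 0.228) when the trend with coding length was taken out.

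**Figure D3:**
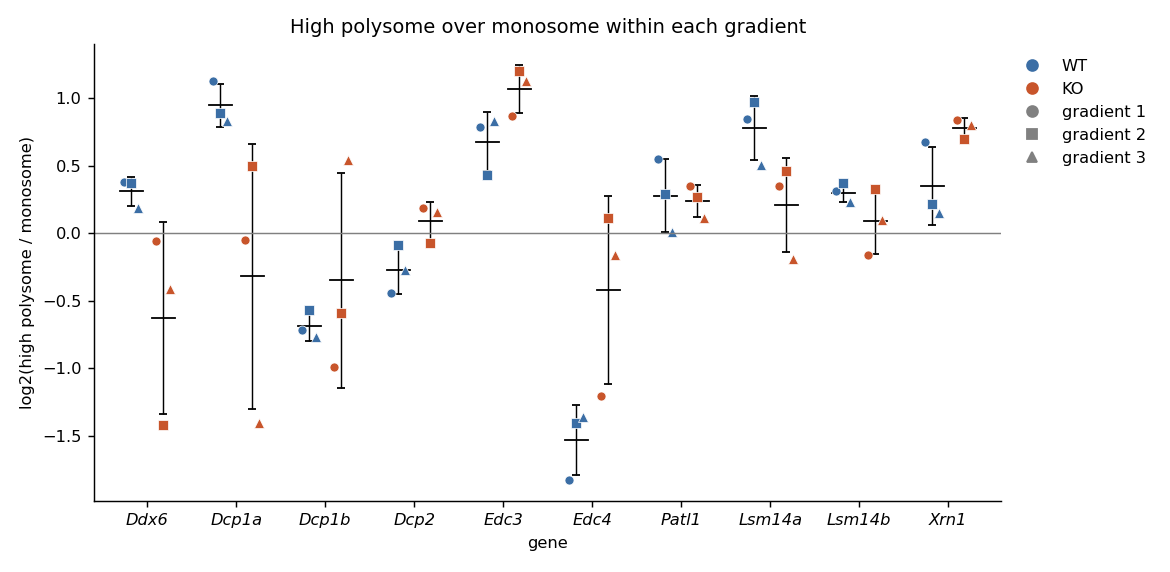
Translation level, log2(high polysome / monosome) with 0.5 CPM added, in each gradient for the 10 genes, WT and KO side by side, with black lines for the mean ± SD of 3. Edc4 sits at −1.83 to −1.36 in WT and at −1.21 (clone 1), 0.11 and −0.16 (clone 2) in KO, and Dcp1a of KO spreads from −1.41 to 0.50.

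In the main fit, which had no block for the gradient, Edc4 was the 1 member whose translation level was called different between KO and WT. There 10.7% of all genes were called higher and 7.09% lower. With the gradient as a block Ddx6 was called as well (−0.86, adjusted p = 0.0228 by limma). Of the genes called, 60.1% were higher, against 40.3% with library size alone and 49.3% with the DESeq2 test, and Edc4 was higher under each. Its ratio in KO was −1.21 in clone 1 and 0.11 and −0.16 in clone 2, with no overlap with WT. The KO minus WT difference was 1.11 ± 0.28 (adjusted p = 0.0099). Without KO gradient 1 it was 1.5 (adjusted p = 0.000491). The call was lost when WT gradient 1 was left out (0.90, adjusted p = 0.0731), and likewise for KO gradient 2 (0.85, adjusted p = 0.0683) and KO gradient 3 (0.96, adjusted p = 0.0826).
The translation levels of 7 members did not overlap between genotypes. They were lower in KO for Ddx6, Dcp1a and Lsm14a, and higher in KO for Dcp2, Edc3, Edc4 and Xrn1, while 17.8% of all genes lay below and 21.2% above in the same way. Over the 10 genes the median difference was 0.16, against 0.022 over all genes. The 10 include Dcp1b (0.39 ± 0.54), which the filter kept only through the WT monosome libraries that enter this ratio.

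The Ddx6 mRNA left in KO cells had a lower translation level than in WT in every gradient, and whether this was called depended on the analysis. Its WT ratios were 0.38, 0.37 and 0.19, and its KO ratios were −0.06 in clone 1 and −1.42 and −0.41 in clone 2. The KO minus WT difference was −0.97 ± 0.69 (adjusted p = 0.346). Fractions of 1 gradient come from 1 lysate, and with the gradient as a block the difference was −0.86 (adjusted p = 0.0228) and the KO high polysome against monosome difference was −0.54 (adjusted p = 0.0134), against −0.66 ± 0.53 (adjusted p = 0.279) without the block. Without KO gradient 1 it was also called, at −1.25 (adjusted p = 0.00492). Dcp1a had a difference of −1.25 ± 0.61 (adjusted p = 0.158) from WT ratios of 1.13, 0.89 and 0.83 and KO ratios of −0.05, 0.50 and −1.41. It passed when only the compared groups were fitted (adjusted p = 0.0348) or without KO gradient 2 (adjusted p = 0.0364).
For the low polysome over the monosome, 0 members were called in either direction by limma, where 2.31% of all genes were called higher and 2.39% lower. The ratios of the genotypes overlapped for all 10, and 12% of all genes lay below and 12.8% above without overlap. No member had an unadjusted p under 0.05 in that comparison, and edgeR and DESeq2 called 0 as well. The largest difference was −0.33 ± 0.25 for Lsm14a (adjusted p = 0.496).

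Coding length moved with the KO change in translation level over the whole table. The median difference was −0.40 for the 3856 genes with up to 1000 coding bases, −0.03 for 1000 to 1500 bases, 0.23 for 1500 to 2000 bases, 0.41 for 2000 to 3000 bases and 0.57 for the 1571 genes over 3000 bases. The quartiles of the last group were 0.17 and 0.90. Edc4 and Xrn1 have the longest coding sequences of the members, at 4173 and 5172 bases, against a median of 1359 bases. With this trend removed, the difference of Edc4 was 0.61 (adjusted p = 0.195) and that of Xrn1 went from 0.51 ± 0.31 (adjusted p = 0.254) to −0.04 (adjusted p = 0.952). Ddx6 (1452 bases) and Lsm14a (1389 bases) fall in a length class whose median is near 0, and Dcp1a (1809 bases) in one whose median is above 0. Length and genotype effects were not separated further.

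**Figure D4:**
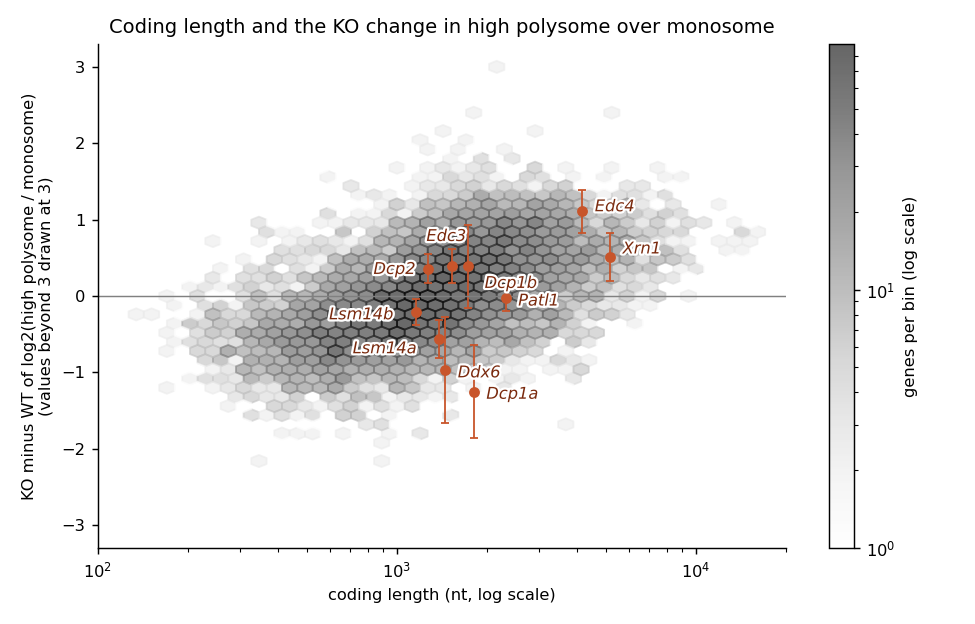
KO minus WT of the log2 translation level (vertical axis) against coding length in bases (horizontal log axis), with all tested genes from 100 to 20000 bases as grey hexagons shaded by their number and the 10 genes as points with bars of 1 SE. The grey cloud rises with length, Edc4 at 4173 bases and Xrn1 at 5172 bases lie on its long side, and Ddx6 and Dcp1a lie on its lower edge.

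The 19 other genes of the pathway, chosen with results of these data known, were the PAT1 paralog Patl2, the eIF4E transporter Eif4enif1, the decapping cofactors Pnrc1 and Pnrc2, the cap scavenger Dcps, the further decapping enzymes Nudt16 and Nudt3, the Lsm1 to Lsm7 ring, Cnot1, and the ataxin-2 group Atxn2, Atxn2l, Mcrip1 and Mcrip2. In the monosome 3 of the 19 rose and 2 fell, where 18.6% of all genes rose and 20.1% fell. In the low polysome 2 rose and 8 fell, against 23.4% and 24.3% of all genes, and in the high polysome 2 rose and 4 fell, against 25.3% and 21.1%. Their median change was 0.03, −0.29 and −0.12, beside −0.033, −0.027 and −0.007 over all genes.
Patl2 had the largest rise in each fraction. It was at 8.83 ± 1.80 CPM (SD, n = 3) in WT and 27.9 ± 6.17 CPM in KO in the monosome, at 6.79 ± 1.42 and 28.9 ± 3.27 CPM in the low polysome, and at 14.4 ± 2.26 and 37.7 ± 4.07 CPM in the high polysome. The changes were 1.68 ± 0.26 (SE, adjusted p = 3.34e-05), 2.11 ± 0.22 (adjusted p = 2.86e-07) and 1.39 ± 0.18 (adjusted p = 3.58e-06), each called in all 14 alternatives, and the groups did not overlap. Its paralog Patl1 was not called in any fraction, as given above.
The largest falls were those of Cnot1 in the monosome, Lsm7 in the low polysome and Lsm2 in the high polysome. CNOT1 is the scaffold of the CCR4-NOT deadenylase that DDX6 binds, and its mRNA went from 122 ± 10.8 to 80.7 ± 8.13 CPM (−0.59 ± 0.14, adjusted p = 0.00172). Cnot1 was not called in the low polysome (−0.22, adjusted p = 0.165) or the high polysome (−0.13, adjusted p = 0.411). Lsm7 went from 34.7 ± 8.81 to 14.3 ± 3.25 CPM (−1.31 ± 0.21, adjusted p = 3.99e-05). It was not called in the monosome (−0.33, adjusted p = 0.268) or the high polysome (−0.12, adjusted p = 0.782). Lsm2 went from 115 ± 7.65 to 65.1 ± 6.21 CPM (−0.82 ± 0.12, adjusted p = 1.72e-05). It was also called in the low polysome (−0.77, adjusted p = 2.28e-05) but not in the monosome (−0.13, adjusted p = 0.432).
In the high polysome over the monosome, 1 of the 19 rose (Atxn2, 0.50 ± 0.17, adjusted p = 0.0426) and 2 fell, of which Lsm2 fell most (−0.69 ± 0.17, adjusted p = 0.00918), where 10.7% of all genes rose and 7.09% fell. The Atxn2 call was lost in 11 of 16 alternatives. In the low polysome over the monosome 0 rose and 2 fell, of which Lsm4 fell most (−0.80 ± 0.17, adjusted p = 0.0156), where 2.31% of all genes rose and 2.39% fell. The Lsm4 call was lost without WT gradient 1 (adjusted p = 0.106) and without KO gradient 3 (adjusted p = 0.14). With the coding length trend removed the differences of Atxn2, Lsm2 and Lsm4 were 0.02 (adjusted p = 0.954), −0.10 (adjusted p = 0.765) and −0.35 (adjusted p = 0.356).

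**Figure D5:**
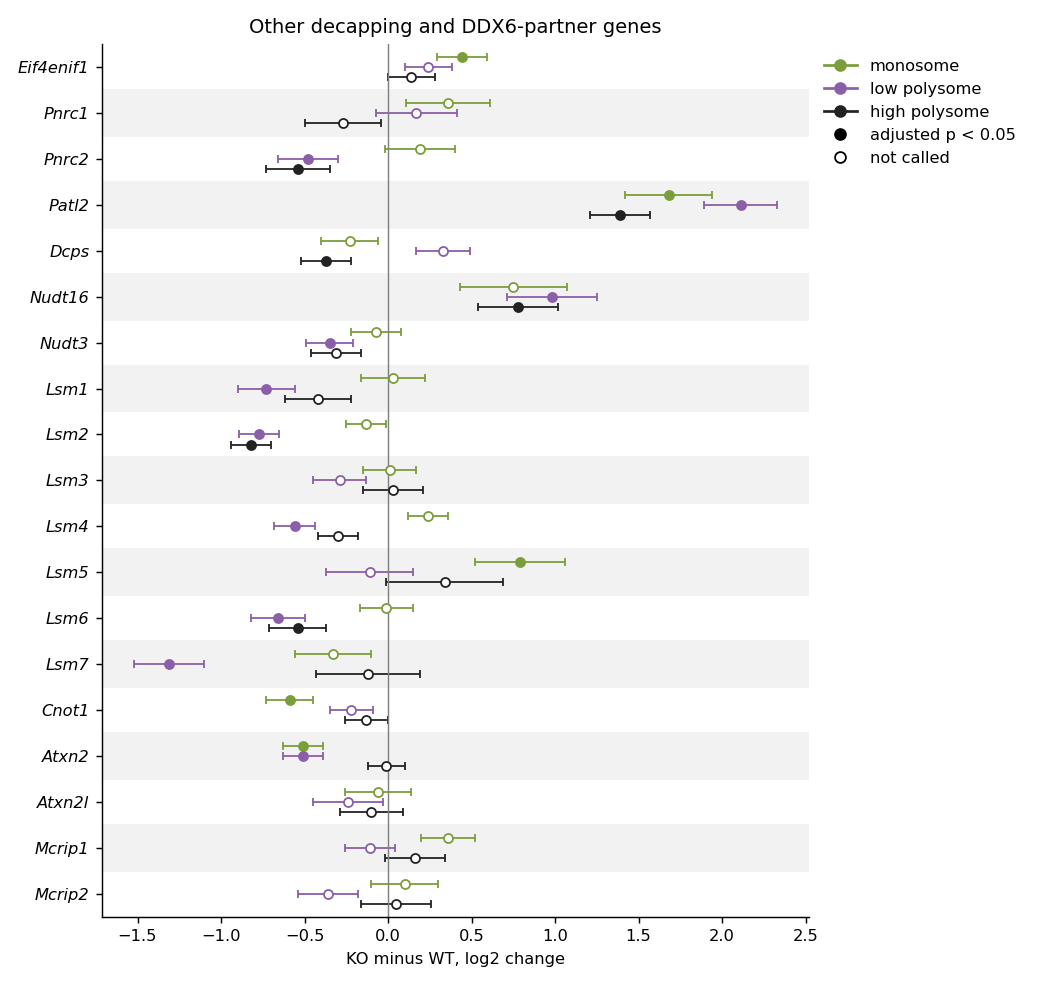
KO minus WT in log2 units for the 19 other genes by fraction, with bars of 1 SE and filled points where the adjusted p passed 0.05. Patl2 stands to the right at 1.39 to 2.11 in all fractions, and 8 points of the low polysome are filled on the left, the farthest being Lsm7 at −1.31.

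The genes whose level across the 18 libraries was most like that of Ddx6 were Crxos (Pearson r = 0.944), Jam2 (0.941) and Rnf165 (0.939), of 9028 genes with a mean of at least 10 CPM. Their Spearman correlations were 0.934, 0.922 and 0.893. The libraries share genotype and clone, so these are descriptions of 2 groups of libraries. Crxos averaged 58.3, 81.7 and 82.2 CPM in WT from monosome to high polysome and 23.8, 28.5 and 21.2 CPM in KO. Over the 3 fractions its KO mean was 30.8 CPM in clone 1 and 22.5 and 20.1 CPM in clone 2.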

How the data were processed

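The libraries were QuantSeq 3′ FWD libraries of RNA from gradient fractions. The authors trimmed reads with cutadapt 1.14, mapped them uniquely to mm10 with STAR 2.5.3a and counted them per gene and strand with featureCounts 1.5.3, and the deposited table holds raw counts for 51467 genes and 92 spike-in rows. Spike-in rows (0.000348 to 0.00217% of counts) were left out. Genes with 3 CPM in 3 libraries were kept (12705 genes, 99.64% of counts). Counts were fitted with limma 3.58.1 (voom, TMM from edgeR 4.0.16, 6 group means over 18 libraries, R 4.3.3), with the Benjamini-Hochberg adjusted p under 0.05 as the threshold. edgeR and DESeq2 1.42.0 served as alternatives. The fit was run on simulated libraries drawn independently, with no gradient or clone effect, so that run does not test the fit under those features of the data. Coding and 3′ UTR lengths came from Gencode M21 (51274 gene identifiers matched, 193 not). The members, the other lists and the tests were chosen with earlier results of these data known. All 10 members are named. Of the 19 other genes the called gene with the largest rise and the largest fall in each KO comparison is named, and the 3 genes most correlated with Ddx6. Of the marker lists, endoderm and mesoderm genes summed to 2.10 to 8.46 CPM. The guide sequence was not used here.

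Fractions with 1 number in 1 genotype come from 1 gradient, by the protocol, and their deviations from the group means correlated at −0.17 to 0.46 (18 pairs). WT and KO gradients share only a number. Replicate libraries differed by more than counting noise (chi-square per degree of freedom 3.53 to 29.7). Precision for Dcp1b is set by its 7 to 25 reads.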

Additional observations from a re-analysis of the deposited data

Results flagged for a closer look

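The KO change of Edc4 differed between the high polysome and the monosome by 1.11 on the log2 scale, by the test of that difference in limma (adjusted p = 0.0099). It was flagged because the fitted KO changes of the 2 fractions differed. The call was lost without WT gradient 1 (adjusted p = 0.0731), KO gradient 2 (0.0683) or KO gradient 3 (0.0826). The high polysome level was above WT in 3 of 3 KO gradients, least in clone 1. The difference was 0.61 (adjusted p = 0.195) with the coding length trend removed. Groups of 3 gradients were too small for the test of single outlying libraries. Reads on spike-in sequences made up to 0.00217% of a library, more than 3 reads would give, and no comparison used them.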

How the results depend on the processing

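Ddx6, Dcp2 and Patl2 kept their falls or rises, where called, in all 14 alternatives of each fraction, and so did Xrn1 in the low polysome and Edc4 in the high polysome. These 14 did not include removal of the coding length trend or the block by gradient, which were run only for comparisons between fractions. Over the members and the named pathway genes, the alternatives that kept all libraries left 665 values on their side of the threshold with the same sign, while 14 calls were lost, 21 were gained and 15 signs turned. Counts of members follow, with all genes called the same way in brackets, and nothing is read from the member counts. Fitting only the compared groups gave 1 riser in the monosome (2737 of 12000 genes). For the WT high polysome against monosome 5 were higher and 2 lower (3963 and 4002 of 11722 genes). The 2 lower include Dcp1b, which the filter kept through its WT monosome libraries. In the same setting 1 was lower for the KO high polysome against monosome (4122 of 11657 genes). For the KO effect on translation level 2 were lower (1331 of 12428 genes). DESeq2 size factors and library size alone each gave 1 lower for the KO high polysome against monosome (4325 and 4590 of 12705 genes). The replicate block by gradient gave 1 lower there (4328 of 12705 genes) and 1 lower for the KO effect on translation level (1064 of 12705 genes), which was Ddx6 in both. The replicate block by number added Dcp2 in the high polysome (−0.32, adjusted p = 0.0303), took 6065 called genes of the low polysome to 6267, and changed no other member's call. WT and KO gradients of 1 fraction and number correlated at −0.48 to 0.24, and 9 of 18 libraries correlated best with their own number. With the coding length trend removed, 1 member was higher and 1 lower for the KO high polysome against monosome (4652 and 2812 of 11769 genes). For the KO effect on translation level 0 members were then higher (437 of 11769 genes). Removing the trend took genes called for the KO effects from 2258 to 695 and from 598 to 131.

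For all genes, the WT high polysome against monosome gave 15269 calls with no filter, and the KO effect on low polysome over monosome gave 1087 with the DESeq2 test, 289 with only the compared groups and 392 at equal depth. Library size alone moved the median of the KO effect on translation level to −0.102 and the share of calls that were higher from 60.1 to 40.3%, and for the low polysome effect from 49.2 to 31.7%. The signs that turned were all of uncalled values. Patl1 became 0.0047 (monosome) and 0.00054 (low polysome) with no filter, 0.0008 with only the compared groups and 0.04 at equal depth (low polysome), 0.03 at equal depth for the KO effect on translation level, and −0.02 (library size alone), −0.0042 (no filter) and −0.09 (length trend) for the low polysome effect. For KO high polysome against monosome, Dcp2 became −0.0087 and Lsm14b −0.0064 with library size alone, and Dcp2 −0.0064 at equal depth. At equal depth the low polysome effects of Dcp1b and Xrn1 became −0.39 and 0.02, and with the length trend removed that of Dcp2 became −0.03 and the translation effect of Xrn1 −0.04. The cause was not tested.

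Leaving out 1 gradient gave 0 to 1 risers and 2 to 4 falls in the monosome and 0 to 1 risers in the low polysome. It gave 1 to 2 risers and 1 to 5 falls in the high polysome. In the WT high polysome against monosome 1 to 2 were lower, and in that of KO 0 to 1. Over 12505 to 12617 genes tested, calls either way numbered 3694 to 4572, 4788 to 5899, 4628 to 5632, 6480 to 7885 and 7536 to 8620 in these 5 comparisons. Some of the monosome falls, and the second lower member of WT, were Dcp1b, which the filter kept through its WT monosome libraries. For the KO effect on translation level it gave 0 to 1 members higher, 0 to 1 lower and 748 to 2618 genes (lowest without KO gradient 3), and for the low polysome effect 29 to 819 genes. Ranges that crossed 0 were −0.02 to 0.13 for Lsm14a in the monosome, −0.05 to 1.15 for Dcp1a, −0.12 to 0.2 for Edc4 and −0.1 to 0.0038 for Patl1 in the low polysome, and −0.76 to 0.25 for Dcp1a and −0.03 to 0.21 for Lsm14b in KO high polysome against monosome. For the translation effect they were −0.17 to 0.02 for Patl1 and −0.19 to 0.78 for Dcp1b, and for the low polysome effect −0.83 to 0.19 for Dcp1a, −0.02 to 0.12 for Patl1, −0.21 to 0.05 for Xrn1 and −0.46 to 0.68 for Dcp1b. A pseudocount of 2 CPM moved 1 translation level by more than the spread of its gradients, that of Dcp1b in WT. Depth limits Dcp1b, which dropped below the filter in some of these analyses, and Dcp1a.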
